A study of Rattus norvegicus with 12 samples.

Results

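Cytochrome P450 enzymes are heme proteins that insert oxygen into fatty acids, sterols, vitamins, hormones and drugs, and they take their electrons from partner reductases. In the kidney, omega-hydroxylases and epoxygenases of the family turn arachidonic acid into lipid mediators of vascular tone and salt transport, and a pair of members sets the level of active vitamin D. The genes described here are every one whose row on the array carries a single symbol made of Cyp and a digit. This rule found 73 genes among 18166 tested. By role, 12 were family 4 fatty acid omega-hydroxylases, 41 belonged to families 1 to 3, 2 to vitamin D metabolism, 7 to sterol and bile acid metabolism, 7 to steroid hormone synthesis and 3 to retinoic acid breakdown, and 1, Cyp20a1, is an orphan with no settled substrate.

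RNA came from rat kidneys after ischemia-reperfusion injury (IRI), in which renal blood flow is stopped and restored. The 4 groups were anti-miR-182 at day 7, placebo at day 7, anti-miR-182 at day 2 and placebo at day 2, each with 3 arrays from 3 animals by the animal codes in the titles, so every animal in all groups had IRI and no uninjured group is described here. Anti-miR-182 is an inhibitor of the microRNA miR-182. The labels state no strain, sex, age or dose. A description label calls the tissue a zero-hour biopsy while the titles give day 2 or day 7, and the groups follow the titles. The microRNA that the treatment targets is shown for reference, with its seed (bases 2 to 8, which pair with target RNAs) in capitals, from RefSeq on build GRCr8 at chr4:59752249-59752273, minus strand.
rno-miR-182: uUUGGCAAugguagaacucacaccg

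The kidney label held: Umod of the thick ascending limb averaged a log2 signal of 11.49 over the 12 arrays, its salt transporter Slc12a1 10.76 and the distal tubule transporter Slc12a3 8.80, and 5 of 6 kidney markers were measured. Correlations between arrays of a group were 0.978 or more. Replicate 3 of anti-miR-182 at day 2 stood apart on the second principal component (10.2% of the variance) at -29.41, with all other arrays between -9.18 and 15.38. The days may differ in a technical way as well, which the labels do not state. The table lacks 190 rows on the day 2 arrays, and the median over all genes of the day 7 minus day 2 log2 difference was -0.21 under anti-miR-182 and -0.18 in placebo. Day of kidney sampling and any separate normalization of the days cannot be told apart, so every day difference is read against these medians, and calls that also held after quantile normalization of all 12 arrays and after centring each array on its median are named as held in all 3 scalings. Treatment is compared within a day, where this does not arise.

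Of the 73 genes, 17 had a mean log2 signal at or above 6.42, the median over all genes, and these are called well expressed. They comprise 7 of the 12 omega-hydroxylases, 6 of the 41 genes of families 1 to 3, both vitamin D genes, the oxysterol hydroxylase Cyp7b1 and Cyp20a1, and none of the steroid hormone or retinoic acid genes. The last gene inside the limit was Cyp4f5 at 6.89, and the first outside was Cyp2j3 at 6.37. Signals of different rows depend on their probes, so they are not ranked against each other as amounts of RNA. The table has no detection calls, and for members with signals near the bottom of the range the presence of a transcript was not tested.

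The day comparison held the larger differences. In whole kidney, fewer cells of a type and less RNA per cell cannot be told apart. By limma with Benjamini-Hochberg adjustment over all 18166 genes, under anti-miR-182 2 P450 genes were higher at day 7 than at day 2 and 18 were lower, against 2.68% and 24.9% of all genes, so 18 of 73 is a share of 24.7% and close to the background. In placebo 6 were higher and 14 lower (8.22% and 19.2% of the members), against 4.22% and 23.7% of all genes. The split moved with the scaling, as it did for all genes. After quantile normalization 6 were higher and 8 lower under anti-miR-182 (8.22% and 11% of the members, against 7.22% and 7.62% of all genes). In placebo 10 were then higher and 7 lower (13.7% and 9.59% of the members, against 8.14% and 7.9% of all genes). After centring, 7 were higher and 8 lower under anti-miR-182 (9.59% and 11% of the members, against 6.23% and 7.44% of all genes). In placebo 12 were then higher and 7 lower (16.4% and 9.59% of the members, against 8.15% and 9.62% of all genes). Calls that held in all 3 scalings numbered 2 higher and 8 lower under anti-miR-182 (2.68% and 6.85% of all genes). In placebo they numbered 6 higher and 7 lower (4.19% and 6.94% of all genes). For a rise, holding in all 3 scalings is a weak check, because the median difference is negative and the other scalings shift differences upward. Of all genes, 487 rose under anti-miR-182 as deposited and 487 in all 3 scalings, and in placebo 766 and 762. All 3 arrays of day 7 lay above all 3 of day 2 for 6 members and below them for 19 under anti-miR-182 (5.36% and 35% of all genes). The same held for 13 and 23 members in placebo (8.38% and 40% of all genes). In all, 29 members passed in either treatment as deposited and 44 in neither, and 2 were higher and 9 lower in both treatments, against 1.77% and 16.3% of all genes. In both treatments and all 3 scalings, 2 members, Cyp3a2 and Cyp2b14l1, were higher at day 7 (1.77% of all genes). Lower in the same way were 3, Cyp24a1, Cyp2a1 and Cyp2b12 (4.05% of all genes). Without that outlying array of anti-miR-182 at day 2, 3 were higher and 18 lower under anti-miR-182, and 9 were higher and 17 lower in placebo. When the third anti-miR-182 array of day 7 was left out, the total of 20 under anti-miR-182 became 10, the lowest count with any 1 array left out. The matching shares of all genes are not given for these fits, so the shifts are not read as particular to P450 genes.

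**Figure D1:**
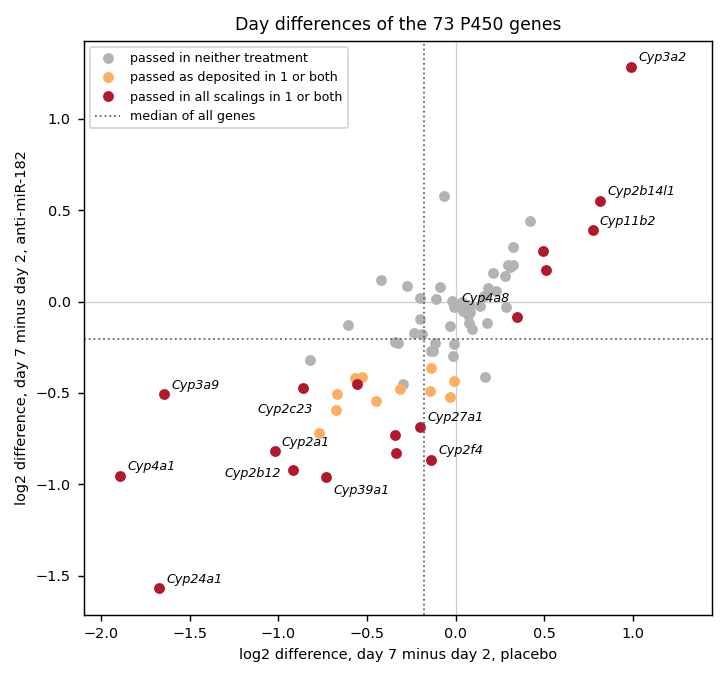
Log2 difference of day 7 minus day 2 for each of the 73 P450 genes, anti-miR-182 on the vertical axis and placebo on the horizontal axis, with dotted lines at the median of all genes (-0.21 under anti-miR-182 and -0.18 in placebo). Red points passed in all 3 scalings in at least 1 treatment (18 genes), orange points passed only as deposited, and grey points (44) passed in neither. Cyp4a1 and Cyp24a1 lie at the lower left, Cyp3a2 at the upper right.

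Among the omega-hydroxylases, Cyp4a1 stood at 9.51, 10.14 and 9.27 under anti-miR-182 at day 7 and at 8.23, 9.28 and 9.11 in placebo at day 7. At day 2 it stood at 10.42, 10.93 and 10.43 under anti-miR-182 and at 11.03, 10.63 and 10.64 in placebo. Every day 7 array lay below every day 2 array, and within day 7 the treatments overlapped. Cyp4a1 hydroxylates medium and long chain fatty acids and is a classic target of the fatty acid receptor PPAR alpha. Under anti-miR-182 it fell by 0.95 ± 0.27 (SE) on the log2 scale, 1.94-fold, with an adjusted p of 0.0181 as deposited. That call did not hold in the other scalings (-0.65 after quantile normalization, adjusted p = 0.117, and 0.0568 after centring). It was also lost when the second anti-miR-182 array of day 2 was left out (adjusted p = 0.0809), or the first or the third of day 7 (0.0601 and 0.0797). In placebo Cyp4a1 fell by 1.89 ± 0.27, 3.71-fold, with an adjusted p of 0.000435, and after quantile normalization the difference was -1.57 (adjusted p = 0.00198).

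Its neighbour in the same subfamily, Cyp4a8, an arachidonic acid hydroxylase of the rat kidney, was named outside the naming rule with its values known. Cyp4a8 did not pass. It ranged from 11.55 to 11.92 under anti-miR-182 and from 11.81 to 11.90 in placebo at day 7, and from 11.65 to 12.08 under anti-miR-182 and from 11.76 to 11.92 in placebo at day 2. The groups overlapped, and the day differences were -0.03 under anti-miR-182 and -0.01 in placebo, both nearer 0 than the median of all genes. Cyp4b1, which oxidises fatty acids and activates furan toxins, stood at 6.67, 6.66 and 6.95 under anti-miR-182 and at 6.25, 7.0 and 6.24 in placebo at day 7, against 7.48, 7.37 and 6.85 under anti-miR-182 and 7.69, 7.11 and 7.27 in placebo at day 2. Under anti-miR-182 its difference of -0.47 had an adjusted p of 0.119. In placebo it fell by 0.86 ± 0.22 (adjusted p = 0.0117, in all 3 scalings), and without replicate 1 of placebo at day 2 the adjusted p was 0.0565.

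The leukotriene hydroxylase Cyp4f1 showed a wide spread under anti-miR-182: 8.07, 8.42 and 7.76 at day 7 and 7.51, 8.47 and 8.64 at day 2. In placebo it stood at 7.78, 7.51 and 7.73 at day 7 and at 8.29, 8.36 and 8.20 at day 2. The placebo days did not overlap, yet the adjusted p was 0.0685 for a difference of -0.61 ± 0.24. Cyp4f6, of the same leukotriene-metabolising subfamily, had a difference of -0.18 under anti-miR-182 and -0.19 in placebo, close to the median of all genes. Counting all 12 members, 2 fell under anti-miR-182 and 3 in placebo as deposited, and none rose. The share was 16.7% under anti-miR-182, where 24.9% of all genes fell, and 25% in placebo, where 23.7% did. As deposited it therefore did not stand above the background. In all 3 scalings 0 of the 12 fell under anti-miR-182, against 6.85% of all genes. In placebo 2 of the 12, Cyp4a1 and Cyp4b1, fell in all 3 scalings, against 6.94% of all genes. Median differences were -0.08 under anti-miR-182 and -0.23 in placebo.

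**Figure D2:**
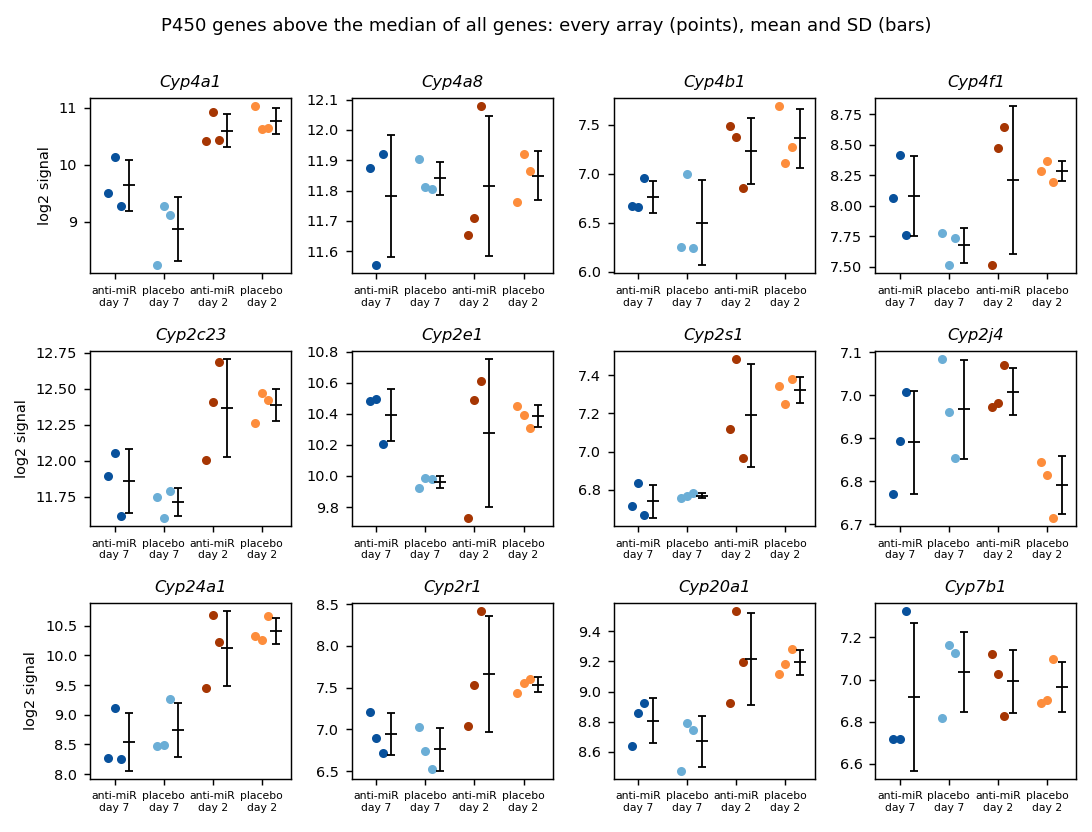
Log2 signal of 12 well-expressed P450 genes on every array. Points are arrays, and bars to the right of them are the mean and SD of the 3 arrays of a group, drawn from left to right as anti-miR-182 day 7, placebo day 7, anti-miR-182 day 2 and placebo day 2. Cyp4a1 and Cyp24a1 are lower on all day 7 arrays, while Cyp4a8 and Cyp7b1 overlap across days.

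Of the 2 vitamin D genes, 1 fell under anti-miR-182 and both in placebo as deposited, against 24.9% and 23.7% of all genes. Only Cyp24a1 fell in all 3 scalings, in both treatments. Cyp24a1, the enzyme that inactivates hormonal vitamin D and is induced by the vitamin D receptor, stood at 8.27, 9.11 and 8.26 under anti-miR-182 and at 8.47, 8.49 and 9.27 in placebo at day 7. At day 2 it stood at 9.44, 10.68 and 10.23 under anti-miR-182 and at 10.32, 10.26 and 10.66 in placebo. No day 7 array reached the lowest day 2 array, replicate 1 of anti-miR-182. It fell by 1.57 ± 0.30 under anti-miR-182 (2.97-fold, adjusted p = 0.0029). In placebo it fell by 1.67 ± 0.30 (3.19-fold, adjusted p = 0.00203). Both calls held in all 3 scalings, with -1.27 under anti-miR-182 and -1.35 in placebo after quantile normalization, and with any 1 array left out. Without the outlying day 2 array the anti-miR-182 difference was -1.51 (adjusted p = 0.0101).

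Cyp2r1 hydroxylates vitamin D in the first step of its activation. It stood at 7.21, 6.90 and 6.72 under anti-miR-182 and at 7.03, 6.74 and 6.52 in placebo at day 7, against 7.04, 7.53 and 8.42 under anti-miR-182 and 7.44, 7.56 and 7.61 in placebo at day 2. The value of 8.42 belongs to the outlying array. Under anti-miR-182 the difference was -0.72 with an adjusted p of 0.0525. In placebo, where the days did not overlap, Cyp2r1 fell by 0.77 ± 0.26 (adjusted p = 0.0396). That call was lost after quantile normalization (-0.55, adjusted p = 0.169) and without any 1 of 5 placebo arrays: replicates 1, 2 or 3 at day 2 (adjusted p 0.0744, 0.0942 and 0.102) and replicates 2 or 3 at day 7 (0.0828 and 0.121). The renal vitamin D activating enzyme Cyp27b1 was not analysed here.

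Of the epoxygenases and other well-expressed genes of families 1 to 3, Cyp2c23 is the arachidonic acid epoxygenase of the rat kidney. It stood at 11.90, 12.06 and 11.62 under anti-miR-182 and at 11.75, 11.60 and 11.79 in placebo at day 7, against 12.01, 12.41 and 12.68 under anti-miR-182 and 12.26, 12.47 and 12.42 in placebo at day 2. The placebo days were separate, and the anti-miR-182 days overlapped. As deposited it fell by 0.51 ± 0.16 under anti-miR-182 (adjusted p = 0.0316) and by 0.67 ± 0.16 in placebo (adjusted p = 0.00872). Neither call held after quantile normalization, with -0.24 under anti-miR-182 (adjusted p = 0.256) and -0.37 in placebo (adjusted p = 0.0788). The anti-miR-182 call was also lost without replicates 2 or 3 at day 2 (adjusted p 0.0878 and 0.109) and without replicates 1 or 3 at day 7 (0.0657 and 0.128).

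Cyp2s1, an enzyme of epithelia that acts on lipid peroxides, stood at 6.71, 6.84 and 6.67 under anti-miR-182 and at 6.76, 6.77 and 6.78 in placebo at day 7, against 7.12, 7.49 and 6.96 under anti-miR-182 and 7.35, 7.25 and 7.38 in placebo at day 2. The days did not overlap in either treatment. It fell by 0.45 ± 0.13 under anti-miR-182 (adjusted p = 0.019) and by 0.56 ± 0.13 in placebo (adjusted p = 0.00695), and the placebo call held in all 3 scalings. The anti-miR-182 call did not hold after quantile normalization (adjusted p = 0.11), nor without replicate 2 at day 2 (0.0805) or replicates 1 or 3 at day 7 (0.0571 and 0.0647). The arachidonic acid enzyme Cyp2j4 lay between 6.71 and 7.09 on all arrays. It did not pass as deposited, with differences of -0.12 under anti-miR-182 and 0.18 in placebo. Its placebo arrays of day 7 all lay above those of day 2, while the anti-miR-182 days overlapped. At day 2 its anti-miR-182 arrays all lay above the placebo arrays, while at day 7 the treatments overlapped. Cyp2e1, which oxidises ethanol and small solvents, had day differences of 0.12 under anti-miR-182 and -0.42 in placebo, with adjusted p-values of 0.656 under anti-miR-182 and 0.095 in placebo.

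Several members with signals below the median of all genes also moved, and the 3 Cyp3a genes named in this paragraph were chosen after their values were seen. Cyp3a2, a steroid and drug hydroxylase of rat liver, stood at 4.67, 5.16 and 4.82 under anti-miR-182 and at 4.50, 4.50 and 4.96 in placebo at day 7, against 3.58, 3.37 and 3.85 under anti-miR-182 and 3.45, 3.84 and 3.68 in placebo at day 2. All day 7 arrays were higher than all day 2 arrays. Cyp3a2 rose by 1.29 ± 0.17 under anti-miR-182 (adjusted p = 0.000326) and by 0.99 ± 0.17 in placebo (adjusted p = 0.00156). Both calls held with any 1 array left out and in all 3 scalings, the latter a weak check for a rise. Its mean of 4.20 exceeds that of only 9.3% of all genes. Cyp3a9, another drug hydroxylase, stood at 5.13, 5.29 and 5.17 under anti-miR-182 at day 7 against 5.30, 6.16 and 5.66 at day 2, a difference of -0.51 with an adjusted p of 0.14. In placebo it stood at 4.69, 4.78 and 5.47 at day 7 against 6.12, 6.83 and 6.93 at day 2. The placebo days were well separated, and Cyp3a9 fell there by 1.65 ± 0.25 (adjusted p = 0.000693, in all 3 scalings). Cyp3a23-3a1 fell by 0.54 ± 0.15 under anti-miR-182 (adjusted p = 0.0164) and by 0.45 ± 0.15 in placebo (adjusted p = 0.0363), and neither call held after quantile normalization (adjusted p 0.0566 under anti-miR-182 and 0.054 in placebo). The anti-miR-182 call of Cyp3a23-3a1 was lost without replicate 2 at day 2 (adjusted p = 0.0747) and without replicates 1 or 3 at day 7 (0.0583 and 0.0579). Its placebo call was lost without replicates 1, 2 or 3 at day 2 (0.121, 0.0617 and 0.0768) and without replicates 1 or 2 at day 7 (0.11 and 0.108). Cyp3a genes are similar in sequence, and whether their probes share signal was not tested.

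These 3 genes are shown by sequence because they belong to 1 subfamily and differed in direction over time. The stretches are bases -160 to -61 before the gene start from RefSeq promoter windows on build GRCr8, at chr12:14343918-14344017 for Cyp3a2, chr12:14398864-14398963 for Cyp3a23-3a1 and chr12:21960221-21960320 for Cyp3a9, all on the minus strand. Capitals mark matches to a direct repeat of AGTTCA with 3 free bases between the copies, of the kind that nuclear receptors bind, and to CAAAGTCCA, a letter run close to the binding site of HNF4 alpha, both searched on both strands.
Cyp3a2: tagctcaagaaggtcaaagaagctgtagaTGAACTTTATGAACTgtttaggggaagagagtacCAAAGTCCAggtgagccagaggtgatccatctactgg
Cyp3a23-3a1: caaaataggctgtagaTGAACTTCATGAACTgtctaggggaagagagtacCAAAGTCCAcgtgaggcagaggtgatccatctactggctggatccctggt
Cyp3a9: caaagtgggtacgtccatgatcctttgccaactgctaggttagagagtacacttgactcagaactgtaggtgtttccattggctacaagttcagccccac
The repeat occurred in 2 of 33469 promoter windows of the same length (0.00598%), those of Cyp3a2 and Cyp3a23-3a1, and CAAAGTCCA occurred in 131 (0.391%), among them the same 2 members. Promoter windows were at hand for 55 of the 73 members. The windows of Cyp3a2 and Cyp3a23-3a1 had 209 of 287 aligned bases in common (72.8%), so the gene that rose and the gene that did not share both matches. Cyp3a9 held neither in its window.

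Other members of families 1 to 3 with low signals, again chosen after their values were seen, moved in both directions. Cyp2a1 stood at 3.81, 3.42 and 3.33 under anti-miR-182 and at 3.24, 3.24 and 3.08 in placebo at day 7, against 4.32, 4.33 and 4.37 under anti-miR-182 and 4.42, 3.90 and 4.30 in placebo at day 2. Day 7 lay below day 2 on every array, and Cyp2a1, a steroid hydroxylase, fell by 0.82 ± 0.15 under anti-miR-182 (adjusted p = 0.00202) and by 1.02 ± 0.15 in placebo (adjusted p = 0.000545). Cyp2b12 fell by 0.92 ± 0.18 in each treatment (adjusted p 0.00302 under anti-miR-182 and 0.00301 in placebo). Cyp2f4 and Cyp2d3 fell under anti-miR-182, by 0.87 ± 0.18 and 0.83 ± 0.15 (adjusted p 0.00404 and 0.0023), with -0.14 and -0.33 in placebo. Cyp2b14l1 rose by 0.55 ± 0.19 under anti-miR-182 (adjusted p = 0.0403) and by 0.82 ± 0.19 in placebo (adjusted p = 0.0067). The anti-miR-182 call of Cyp2b14l1 was lost without replicates 1 or 2 of anti-miR-182 at day 2 (0.128 and 0.0718), replicate 3 of placebo at day 2 (0.0528), or replicates 1 or 3 of anti-miR-182 at day 7 (0.158 and 0.0777). Cyp2c22 had a difference of 0.17 under anti-miR-182 and rose by 0.51 ± 0.12 in placebo (adjusted p = 0.00677).

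Of the dioxin-responsive genes of family 1, Cyp1b1, which oxidises estrogens and aromatic hydrocarbons, stood at 5.0, 5.21 and 5.17 under anti-miR-182 and at 5.27, 5.47 and 5.41 in placebo at day 7, against 6.19, 5.94 and 5.44 under anti-miR-182 and 5.85, 5.57 and 5.77 in placebo at day 2. Day 7 was below day 2 in both treatments without overlap, and under anti-miR-182 Cyp1b1 fell by 0.73 ± 0.16 (adjusted p = 0.00573, in all 3 scalings). The placebo difference was -0.34 with an adjusted p of 0.124. Cyp1a1, the hydrocarbon hydroxylase of the same receptor, had differences of -0.22 under anti-miR-182 and -0.34 in placebo and passed in neither. Over all 41 members of families 1 to 3, 2 rose and 11 fell under anti-miR-182, and 4 rose and 6 fell in placebo. The share that fell was 26.8% under anti-miR-182 and 14.6% in placebo, against 24.9% of all genes under anti-miR-182 and 23.7% in placebo, so it was near the background under anti-miR-182 and below it in placebo. The share that rose was 4.88% under anti-miR-182 and 9.76% in placebo, against 2.68% and 4.22% of all genes. In all 3 scalings 2 rose and 5 fell under anti-miR-182, against 2.68% and 6.85% of all genes. In placebo 4 rose and 4 fell in all 3 scalings, against 4.19% and 6.94% of all genes.

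Of the sterol and bile acid genes, the oxysterol hydroxylase Cyp7b1 lay between 6.72 and 7.32 at day 7 and between 6.83 and 7.12 at day 2, with differences of -0.07 under anti-miR-182 and 0.07 in placebo. It did not pass. Cyp27a1, the mitochondrial sterol hydroxylase, stood at 5.41, 5.58 and 5.33 under anti-miR-182 and at 5.58, 5.46 and 5.57 in placebo at day 7, against 6.19, 6.22 and 5.97 under anti-miR-182 and 5.70, 5.83 and 5.66 in placebo at day 2. The 3 arrays of anti-miR-182 at day 2 were the highest. Cyp27a1 fell by 0.69 ± 0.11 under anti-miR-182 (adjusted p = 0.00117, in all 3 scalings), and its placebo difference of -0.20 had an adjusted p of 0.194. Cyp39a1, an oxysterol hydroxylase chosen after its values were seen, stood at 5.79, 5.75 and 6.18 under anti-miR-182 and at 6.06, 5.72 and 5.78 in placebo at day 7, against 6.77, 6.59 and 7.26 under anti-miR-182 and 6.55, 6.58 and 6.62 in placebo at day 2. It fell by 0.96 ± 0.17 under anti-miR-182 (adjusted p = 0.00161, in all 3 scalings) and by 0.73 ± 0.17 in placebo (adjusted p = 0.00703, and 0.0527 after quantile normalization).

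The cholesterol synthesis enzyme Cyp51 fell by 0.57 ± 0.20 in placebo at an adjusted p of 0.0473. That call was lost after quantile normalization (adjusted p = 0.183) and on leaving out any of 8 arrays: replicate 2 of anti-miR-182 at day 2 (0.0512), replicates 2 or 3 of placebo at day 2 (0.168 and 0.136), replicates 1, 2 or 3 of anti-miR-182 at day 7 (0.059, 0.0554 and 0.0567), and replicates 1 or 3 of placebo at day 7 (0.117 and 0.118). Cyp20a1, the orphan, stood at 8.64, 8.85 and 8.93 under anti-miR-182 and at 8.47, 8.79 and 8.74 in placebo at day 7, against 8.92, 9.53 and 9.20 under anti-miR-182 and 9.12, 9.18 and 9.28 in placebo at day 2. Its difference was -0.41 under anti-miR-182 (adjusted p = 0.0543). It fell by 0.53 ± 0.15 in placebo (adjusted p = 0.02), a call lost after quantile normalization (-0.21, adjusted p = 0.276) and without replicates 2 or 3 at day 2 (0.0532 and 0.0695) or replicate 1 at day 7 (0.0784).

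The 7 steroid hormone genes and 3 retinoic acid genes had low signals throughout. Cyp11a1, which starts steroid synthesis, lay between 5.17 and 5.58 on all arrays, and Cyp11b1, which completes corticosteroids, between 3.39 and 3.99, with no difference passing. Cyp11b2, the aldosterone synthase, chosen after its values were seen, had a difference of 0.39 under anti-miR-182 (adjusted p = 0.131) and rose by 0.77 ± 0.19 in placebo (adjusted p = 0.00916, in all 3 scalings). Mean signals of 7 measured adrenal cortex markers lay between 5.18 and 5.43 at day 7 and between 5.41 and 5.62 at day 2. As deposited, 2 of these markers fell in each treatment, where 24.9% of all genes fell under anti-miR-182 and 23.7% in placebo. In all 3 scalings 2 of the 7 fell under anti-miR-182 and 0 in placebo, against 6.85% and 6.94% of all genes. Their part in the rise of Cyp11b2 was not tested. Cyp26b1, which breaks down retinoic acid, fell by 0.48 ± 0.12 under anti-miR-182 as deposited (adjusted p = 0.00924, and 0.0802 after quantile normalization), with -0.31 in placebo (adjusted p = 0.0554). Cyp26c1, of the same function and chosen after its values were seen, had a difference of -0.08 under anti-miR-182 and rose by 0.35 ± 0.11 in placebo (adjusted p = 0.0338, in all 3 scalings). That call was lost without replicates 2 or 3 of placebo at day 2 (adjusted p 0.0774 and 0.124) or replicates 1 or 3 of placebo at day 7 (0.0971 and 0.0907). Cyp26a1, the remaining retinoic acid gene, passed in neither treatment, with 0.01 under anti-miR-182 and -0.11 in placebo.

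**Figure D3:**
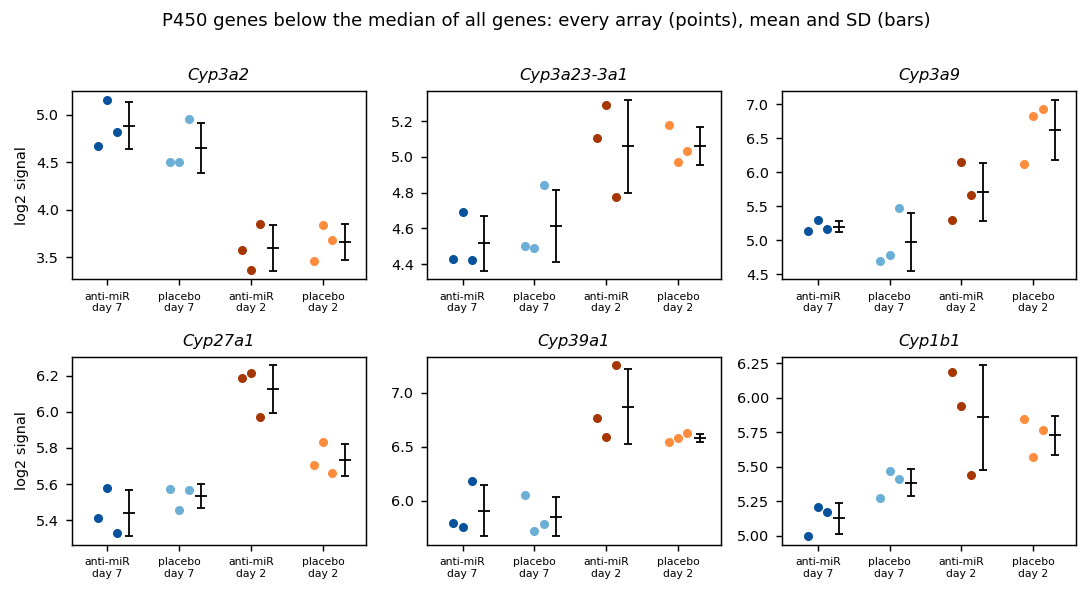
Log2 signal of 6 P450 genes with a mean below the median of all genes on every array, with points for arrays and bars for the mean and SD of the 3 arrays of a group, drawn from left to right as anti-miR-182 day 7, placebo day 7, anti-miR-182 day 2 and placebo day 2. Cyp3a2 is higher on all day 7 arrays, Cyp3a9 has its highest mean in placebo at day 2, and Cyp27a1 under anti-miR-182 at day 2.

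Treatment with anti-miR-182 was compared with placebo within each day. No P450 gene passed at day 7 or day 2, in the mean of both days, or in the difference between the days, by limma with adjustment over all genes. Of all genes, 0% passed in either direction at day 7, at day 2 and in the difference between days, and in the mean of both days 0.0055% (1 gene) passed as higher and 0% as lower. At an unadjusted p under 0.05, 4 members were higher and 0 lower under anti-miR-182 at day 7, against 1.61% and 1.66% of all genes. At day 2, 10 were higher and 1 lower, against 4.2% and 2.41%. In the mean of both days 5 were higher and 0 lower, against 3.24% and 2.03%, and in the difference between the days 3 were higher and 5 lower, against 1.22% and 2.7%. In simulated day 7 comparisons with 200 changed genes, 88.5% of genes changed by 1 on the log2 scale were called, and 9.8% of those changed by 0.5. The adjustment is stricter where few genes change, and at day 7 the smallest adjusted limma p of all genes was 0.999. These shares therefore do not carry over to a single changed P450 gene, and differences near 1 could also have been missed.

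Cyp4a1 at day 7 averaged 9.64 ± 0.45 under anti-miR-182 and 8.87 ± 0.56 in placebo (SD, n = 3 each), a log2 difference of 0.77 with a 95% interval from 0.20 to 1.34. The groups overlapped, and the limma p was 0.012 unadjusted and 0.999 adjusted. At day 2 the difference was -0.17. The day 7 difference minus the day 2 difference was 0.94 ± 0.38 (limma p 0.0254 unadjusted and 0.999 adjusted), so the smaller fall of Cyp4a1 under anti-miR-182 was not distinguished from that in placebo. Cyp2e1 at day 7 stood at 10.48, 10.49 and 10.20 under anti-miR-182, all above 9.92, 9.99 and 9.98 in placebo. The difference was 0.43 with an interval from 0.04 to 0.82 and an adjusted p of 0.999. Groups were separate in this way, with anti-miR-182 higher, for 4 members (3.5% of all genes) and, with it lower, for 1 (3.75%).

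Some other well-expressed genes are given here at day 7. Cyp24a1 had a difference of -0.19 with an interval from -0.84 to 0.46, and Cyp2c23 one of 0.14 with an interval from -0.20 to 0.49. Cyp4f1 had one of 0.41 with an interval from -0.10 to 0.91. The intervals of Cyp24a1 and Cyp4f1 still admit differences of over 0.8 on the log2 scale. Cyp4a8 had a difference of -0.06 with an interval from -0.34 to 0.23. At day 2, Cyp24a1 differed by -0.30 with an interval from -0.95 to 0.36, Cyp2e1 by -0.11 with an interval from -0.50 to 0.28, and Cyp2c23 by -0.02 with an interval from -0.36 to 0.33. None of these intervals excludes 0, and none shows that the treatments were alike.

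**Figure D4:**
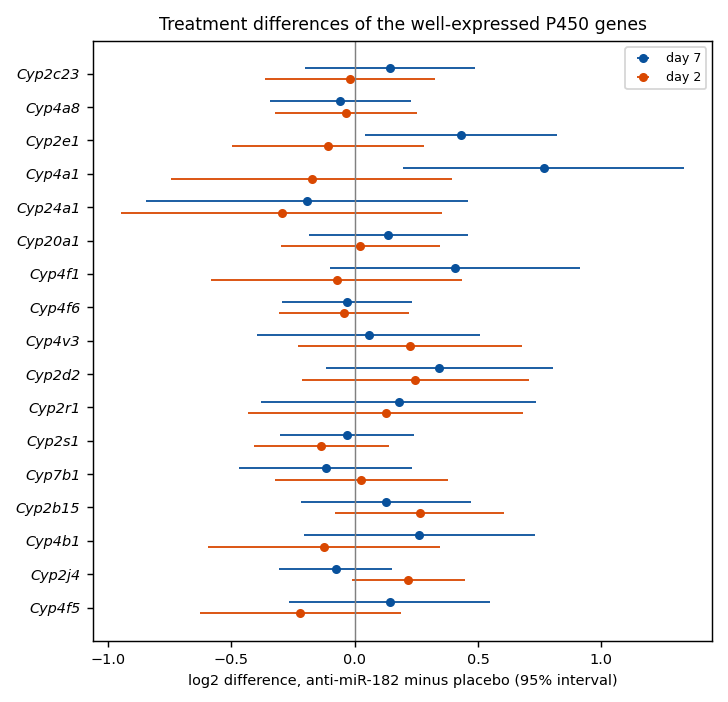
Log2 difference of anti-miR-182 minus placebo with its 95% interval for the 17 well-expressed P450 genes at day 7 (blue) and day 2 (orange). Intervals of Cyp4a1 (0.20 to 1.34) and Cyp2e1 (0.04 to 0.82) at day 7 lie above 0 before adjustment over all genes, and none passed after it.

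At day 2 the smallest unadjusted p-values belonged to low-signal members. Cyp3a9, chosen after its values were seen, stood at 5.30, 6.16 and 5.66 under anti-miR-182 against 6.12, 6.83 and 6.93 in placebo. Replicate 2 of anti-miR-182 overlapped with replicate 1 of placebo. The difference was -0.92 ± 0.25 (unadjusted p = 0.00243, adjusted p = 0.644), and the day 7 difference minus this one was 1.14 ± 0.35 (adjusted p = 0.999). Without the outlying array the day 2 difference was -0.90. Cyp27a1 at day 2 was higher under anti-miR-182 on all 3 arrays, by 0.39 ± 0.11 (unadjusted p = 0.00341, adjusted p = 0.645). Without the outlying array this was 0.47 (adjusted p = 0.509). Cyp2b21 and Cyp2f4, also chosen after their values were seen, were higher by 0.51 ± 0.14 and 0.61 ± 0.18 (adjusted p = 0.645 each), and by 0.45 and 0.51 without the outlying array. Separate groups with anti-miR-182 higher were found for 10 members, 13.7% of them, against 8.06% of all genes, and with it lower for 1, against 4.24%.

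P450 enzymes depend on electron donors and on receptors that set their transcription, and lists of these were examined beside the members. Of 5 measured electron donors, 3 fell in each treatment as deposited, where 24.9% of all genes fell under anti-miR-182 and 23.7% in placebo. Por, the reductase that feeds microsomal P450s, stood at 7.88, 7.89 and 7.37 under anti-miR-182 and at 7.42, 7.71 and 7.62 in placebo at day 7, against 8.12, 8.64 and 8.04 under anti-miR-182 and 8.70, 8.50 and 8.37 in placebo at day 2. It fell by 0.55 ± 0.18 under anti-miR-182 (adjusted p = 0.0323) and by 0.94 ± 0.18 in placebo (adjusted p = 0.0025), and the placebo call held in all 3 scalings. The anti-miR-182 call of Por was lost without replicate 2 at day 2 (-0.37, adjusted p = 0.144) or replicate 3 at day 7 (-0.38, adjusted p = 0.14). Cyb5b, a cytochrome that supplies electrons at the mitochondrial surface, fell by 0.82 ± 0.15 under anti-miR-182 and by 0.78 ± 0.15 in placebo, in all 3 scalings. Of 2 measured heme genes, Hmox1, which breaks heme down, fell by 0.72 ± 0.15 under anti-miR-182 (adjusted p = 0.005), with -0.23 in placebo.

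Of 12 measured receptors and regulators, 4 fell under anti-miR-182 and 5 in placebo, against 24.9% and 23.7% of all genes. In all 3 scalings 3 fell in each treatment, against 6.85% and 6.94% of all genes. Vdr, the vitamin D receptor that drives Cyp24a1, stood at 7.48, 7.33 and 6.75 under anti-miR-182 and at 7.09, 6.86 and 7.09 in placebo at day 7, against 8.09, 8.25 and 7.92 under anti-miR-182 and 8.05, 8.08 and 8.11 in placebo at day 2. The days did not overlap. Vdr fell by 0.90 ± 0.16 under anti-miR-182 (adjusted p = 0.002) and by 1.06 ± 0.16 in placebo (adjusted p = 0.00077). Ppara, the receptor that drives Cyp4a1, fell by 1.03 ± 0.23 under anti-miR-182 (adjusted p = 0.0059) and by 1.14 ± 0.23 in placebo (adjusted p = 0.0034). Ahrr, a repressor of the dioxin receptor, fell by 0.96 ± 0.12 under anti-miR-182 and by 0.55 ± 0.12 in placebo. The mean signal of Ahrr is low, and its 4.96 exceeds that of only 16.9% of all genes. The calls of Vdr, Ppara and Ahrr held with any 1 array left out. Of 8 measured PPAR alpha targets outside the family, 3 fell under anti-miR-182 and 6 in placebo, against 24.9% and 23.7% of all genes. In all 3 scalings 2 fell under anti-miR-182 and 5 in placebo, against 6.85% and 6.94% of all genes.

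Among those targets the peroxisomal enzyme Ehhadh stood at 8.57, 8.86 and 8.19 under anti-miR-182 and at 8.41, 7.74 and 7.78 in placebo at day 7, against 9.76, 10.43 and 10.13 under anti-miR-182 and 10.36, 10.44 and 10.01 in placebo at day 2. It fell by 1.56 ± 0.22 under anti-miR-182, and in placebo it fell by 2.29 ± 0.22. The thioesterase Acot1 fell by 1.05 ± 0.24 under anti-miR-182 and by 1.38 ± 0.24 in placebo. Cpt1a, which takes fatty acids into mitochondria, fell by 0.63 ± 0.17 under anti-miR-182 and by 0.90 ± 0.17 in placebo. Its anti-miR-182 call was lost after quantile normalization (adjusted p = 0.137) and without replicate 2 at day 2 (0.079) or replicates 1 or 3 at day 7 (0.0617 and 0.0762).

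Of 5 enzymes that handle the same lipid products, the epoxide hydrolase Ephx1 fell by 0.67 ± 0.19 under anti-miR-182 and by 1.05 ± 0.19 in placebo. Its anti-miR-182 call was lost after quantile normalization (adjusted p = 0.179) and without replicates 2 or 3 at day 2 (0.0628 and 0.058) or replicate 3 at day 7 (-0.42, adjusted p = 0.0759). The prostacyclin synthase Ptgis, itself a P450 protein by fold, rose by 0.47 ± 0.12 under anti-miR-182 and by 0.33 ± 0.12 in placebo (adjusted p = 0.0497). The placebo call of Ptgis was lost on leaving out any array other than replicate 3 of anti-miR-182 at day 2 or replicate 2 of placebo at day 7, with adjusted p up to 0.192. In the treatment comparisons 0 of the 32 genes in the 5 lists passed by limma. At an unadjusted p under 0.05, 2 were higher and 0 lower at day 7, against 1.61% and 1.66% of all genes. At day 2, 1 was higher and 2 were lower, against 4.2% and 2.41% of all genes.

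**Figure D5:**
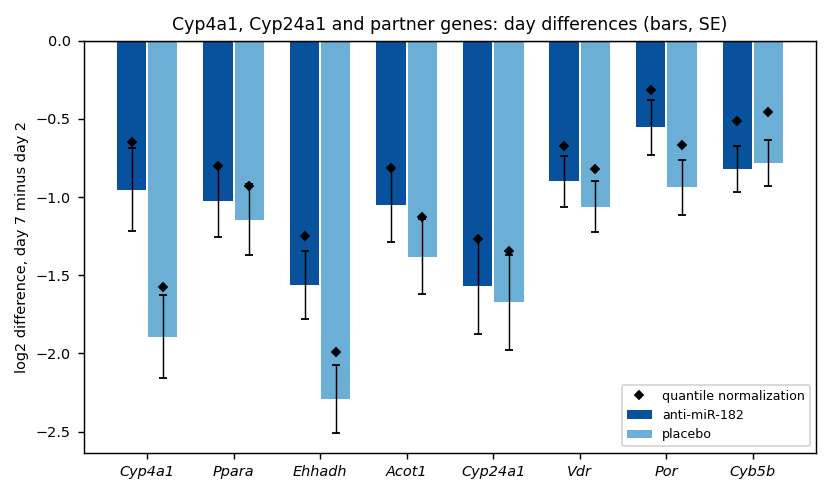
Log2 difference of day 7 minus day 2 for Cyp4a1, Cyp24a1 and 6 partner genes under anti-miR-182 (dark) and in placebo (light), with bars at the value as deposited, error bars of 1 SE and diamonds at the value after quantile normalization. All 8 genes lie below 0 in both treatments and under both scalings, from -2.29 (Ehhadh in placebo) upward.

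Proximal tubule cells hold much of the renal P450 system, and the mean log2 signal of 18 of their markers without P450 genes was 10.16, 10.05 and 9.31 under anti-miR-182 and 9.64, 9.58 and 9.44 in placebo at day 7. At day 2 it was 10.09, 10.57 and 10.60 under anti-miR-182 and 10.50, 10.49 and 10.38 in placebo. Of these markers, 5 fell under anti-miR-182 and 11 in placebo as deposited, against 24.9% and 23.7% of all genes. In all 3 scalings 1 marker fell under anti-miR-182 and 4 in placebo, against 6.85% and 6.94% of all genes. The median marker difference was -0.35 under anti-miR-182 and -0.71 in placebo. Beside it, Cyp4a1 had differences of -0.95 under anti-miR-182 and -1.89 in placebo, and Cyp24a1 of -1.57 under anti-miR-182 and -1.67 in placebo. The markers' part in these falls was not tested. At day 7 the marker mean of replicates 1 and 2 of anti-miR-182 lay above all placebo arrays, and that of replicate 3, 9.31, below all of them. The median marker difference between treatments was 0.29, with no marker passing, beside 0.77 for Cyp4a1 and 0.43 for Cyp2e1. The markers' part in these treatment differences was not tested.

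Markers of other cells were examined in the same way. Macrophage markers rose for 2 of 10 genes under anti-miR-182 and 4 in placebo, and fibroblast markers for 1 of 9 under anti-miR-182 and 3 in placebo. Of all genes, 2.68% rose under anti-miR-182 and 4.22% in placebo as deposited. Replicate 2 of placebo at day 7 had the highest means, 8.54 for macrophages and 8.78 for fibroblasts. Liver markers, relevant to Cyp3a2, had means between 5.09 and 5.34 at day 7 and between 5.41 and 5.68 at day 2. Of 7 measured, 3 fell under anti-miR-182 and 4 in placebo as deposited, against 24.9% and 23.7% of all genes. In all 3 scalings 1 fell in each treatment, against 6.85% and 6.94% of all genes. The part of the liver markers in the rise of Cyp3a2 was not tested. Perirenal fat markers had means between 5.69 and 5.97 at day 7 and between 5.58 and 5.88 at day 2.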

How the data were processed

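The values used are log2 signals, deposited by the authors for 12 arrays of rat kidney RNA. Per the submitters' processing notes they were made with RMA, whose version is not given in the sources used here, and per the labels 200 ng of total RNA was amplified and labelled with biotin. Of 36685 rows the annotation lists 19086, and 18511 carry 1 symbol and 575 several. A gene with several rows kept the row with the highest mean, which gave 18166 genes. Of the 73 P450 symbols, 72 matched RefSeq by gene ID, and 3 rows with several symbols were left out of the tests.

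All genes were fitted in limma (version 3.58.1, R 4.3.3) with a mean for each of the 4 groups. Calls are at a Benjamini-Hochberg adjusted p under 0.05 over all genes, and ± is the SE of a difference unless SD is stated. The members, lists, named genes and tests were chosen with earlier results of these data known. Named members are the well-expressed ones past the threshold with a log2 difference of at least 1, in each role up to 4 well-expressed ones by lowest unadjusted p, and a set list, with others named as chosen later. Partner genes are named by the 4 smallest unadjusted p-values of a list. On simulated data with 200 changed genes among 18166, false calls made up 5.82% for a log2 difference of 1. Alternatives were quantile normalization, array centring, an intensity trend, robust variance, array weights, leaving out genes under the median signal, the mean of a gene's rows, each day alone and each array left out. Arrays hold no read depth, and the number of arrays limits the precision. Whether animals were independent beyond their codes is not stated.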

Additional observations from a re-analysis of the deposited data

How the results depend on the processing

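The 4 treatment comparisons gave 0 P450 genes under every alternative run, including each day fitted alone. For the day comparisons, 20 members passed under anti-miR-182 and 20 in placebo as deposited. Leaving out genes under the median signal, which leaves 17 members to test, gave 4 under anti-miR-182 and 7 in placebo. With 1 array left out in turn the counts ran from 10 to 21 under anti-miR-182 and from 13 to 26 in placebo. For these alternatives the shares of all genes are not given, so changes in the counts are not read as particular to P450 genes. Quantile normalization, centring, the intensity trend, robust variance, array weights and the mean of a gene's rows kept both totals within 1.5 times, while the scalings moved the split of higher and lower calls as given with the counts. For 43 differences of single named genes recomputed under the alternatives, 734 of 796 values kept their direction and side of the threshold, 62 kept the direction but no longer passed, and 0 reversed. Over all 40 day calls of members, leaving out 1 array ended the call in 82 of 480 fits, and 22 calls were ended by no single array. The 480 fits include those that leave out an array of neither compared group. There the difference stays the same, and only the estimated spread and the adjustment can change the call. No paired analysis was possible because the labels give no replicate numbers shared between groups. Signal over background limits the low members, since the table gives no detection calls.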

Other observations

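The 3 rows that carry several symbols with a P450 gene among them belong in no comparison. The row of Cyp4a3 and Cyp4a2, fatty acid omega-hydroxylases of the rat kidney, averaged 12.55 ± 0.32 under anti-miR-182 and 12.58 ± 0.33 in placebo at day 7, and 12.88 ± 0.18 under anti-miR-182 and 13.02 ± 0.29 in placebo at day 2 (log2 signal, SD, n = 3 each). The row of Cyp2d1 and Cyp2d5 averaged 6.56 ± 0.13 under anti-miR-182 and 6.11 ± 0.35 in placebo at day 7, and 6.38 ± 0.54 under anti-miR-182 and 6.31 ± 0.24 in placebo at day 2. The row of Cyp2s1 and its pseudogene averaged 5.58 ± 0.24 under anti-miR-182 and 5.73 ± 0.19 in placebo at day 7, and 6.0 ± 0.11 under anti-miR-182 and 5.88 ± 0.04 in placebo at day 2. Which gene of a pair gave the signal was not tested.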
